A study of Mus musculus with 6 samples.

Results

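The genes Ccl2, Ccl7, Ccl11, Ccl12 and Ccl8 stand in a row on mouse chromosome 11 and encode chemokines that draw monocytes, eosinophils and lymphocytes into tissue. Binding of CTBP2, a transcriptional co-repressor, was measured at this locus by chromatin immunoprecipitation and sequencing (ChIP-seq) in macrophages cultured from mouse bone marrow. The locus was defined by position alone, as all sites of the deposited table whose centre lies from 81.86 to 82.04 Mb of chromosome 11. That rule gave 24 of the 62236 sites, each 1001 bp wide. The 3 LPS libraries came from cells given 100 ng/ml lipopolysaccharide, a bacterial cell wall component, for 3 h, and the 3 vehicle libraries from cells given PBS. All cells were from wildtype male C57BL6/N mice of 6 to 12 weeks and were differentiated in L929 supernatant. The labels number the replicates without naming separate animals or cultures behind them, so p-values speak only to the spread among the 6 libraries, and that spread may be technical. No input or control immunoprecipitation was used here, and in bulk chromatin a larger share of bound cells and more binding per cell cannot be told apart.

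As background, chemokines are small secreted proteins that act through G protein-coupled receptors on leukocytes. The Ccl2, Ccl7 and Ccl12 proteins attract monocytes through Ccr2, mouse Ccl8 acts on Ccr8, and Ccl11 (eotaxin) attracts eosinophils through Ccr3. Macrophages switch on Ccl2 and its neighbours when Toll-like receptors are engaged, and NF-kB is the best-known activator. CTBP2 does not read DNA itself and is brought to it by partner factors, which recruit histone-modifying enzymes with it.

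The genes were placed on the sites by a measured offset, because the gene positions at hand are of GRCm38.p6 and the site positions are of another build, read here as GRCm39, which the submitters' processing notes list. With RefSeq gene starts within 2.5 Mb moved down by 109.2 kb, 32 of 77 had a site centre within 500 bp, against 13 at the next best shift. Distances below are from the placed starts and are only approximate, since the offset was matched within 500 bp. The RefSeq promoter table (GRCm38.p6) held an entry for 2 of the 5 genes, Ccl12 and Ccl8. They are printed because their sites rose, and because the Ccl12 site covers its promoter while the Ccl8 site begins past it. Capitals mark the matches to 7 motifs searched on both strands, and each sequence runs from 250 bases before the start to 50 bases after it, on the plus strand.
Ccl12, chr11:82101595-82101894: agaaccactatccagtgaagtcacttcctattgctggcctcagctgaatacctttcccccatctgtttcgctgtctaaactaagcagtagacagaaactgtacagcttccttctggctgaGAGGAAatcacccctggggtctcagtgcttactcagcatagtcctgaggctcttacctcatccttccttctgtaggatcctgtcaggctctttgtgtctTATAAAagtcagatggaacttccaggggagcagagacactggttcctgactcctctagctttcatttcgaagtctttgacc
Ccl8, chr11:82114935-82115234: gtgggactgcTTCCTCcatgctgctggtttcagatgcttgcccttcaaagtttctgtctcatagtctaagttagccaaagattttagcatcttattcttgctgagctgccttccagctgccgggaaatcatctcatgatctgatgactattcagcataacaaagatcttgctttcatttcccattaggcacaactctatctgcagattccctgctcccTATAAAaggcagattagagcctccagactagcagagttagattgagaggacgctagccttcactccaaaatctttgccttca
Both promoters held TATAAA, with its first base at -31 in Ccl12 and at -32 in Ccl8, a motif present in 13.6% of 32851 RefSeq promoters of this length. Both also held the PU.1 core GAGGAA, at -130 on the plus strand in Ccl12 and at -240 on the minus strand in Ccl8, as did 28.3% of promoters. Neither window held the kappaB motif (in 5.80% of promoters), AP-1 TGANTCA (7.81%), the interferon-type motif (3.44%), the C/EBP motif (10.8%) or the ZEB E-box CAGGTG (20.2%). No 2 of the matches overlapped.

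No total depth is given with the table. If the smallest step of each deposited column is 1 read, they held 3243258 to 4553179 reads in sites, and the median site had 39 to 55 reads. All values were whole multiples of the step within 0.1 read, but not at a stricter tolerance, so read numbers and their intervals are estimates. Between libraries of a group the log2 site values correlated at 0.890 to 0.932, and between groups at 0.692 to 0.763, across sites that are not independent. As for the labelled cell type, all 6 placed macrophage genes of a marker list had a site within 50 kb, against 3 of 4 neutrophil genes and 1 of 2 lymphocyte genes. Sites nearer to another gene start were left out, and the stromal genes of the list, Col1a1 and Pdgfrb, could not be placed. No share over all genes was taken beside these counts, so they do not decide the cell type. Binding of a co-repressor is not a measure of expression. Below, the signal of a site is given as a multiple of the median site of the same library, so that 1 is the level of a typical site in the table.

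After LPS, CTBP2 signal rose at 10 of the 24 sites and passed the test downward at 0. Over all sites of the table, 16.1% were higher and 13.5% lower (limma on log2 values, Benjamini-Hochberg adjusted p under 0.05 over all sites), against 41.7% and 0 here. The folds of the 10 sites ran from 1.44 to 3.76, so most of the gains were modest. Of the other 14 sites, 9 had a log2 fold above 0 and 5 below it. In all, 19 of the 24 sites had a log2 fold above 0, against 48.5% of all sites. The median log2 fold was 0.50 at the locus and -0.02 over all sites. At 12 sites every LPS library lay above every vehicle library, and at 1 site every LPS library lay below, where the table as a whole had 21.6% and 20.6%. On the deposited values without rescaling, only the Ccl8 site passed (with 1.89% of all sites higher and 0.0482% lower), and the other 9 had limma adjusted p from 0.415 to 0.848.

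**Figure D1:**
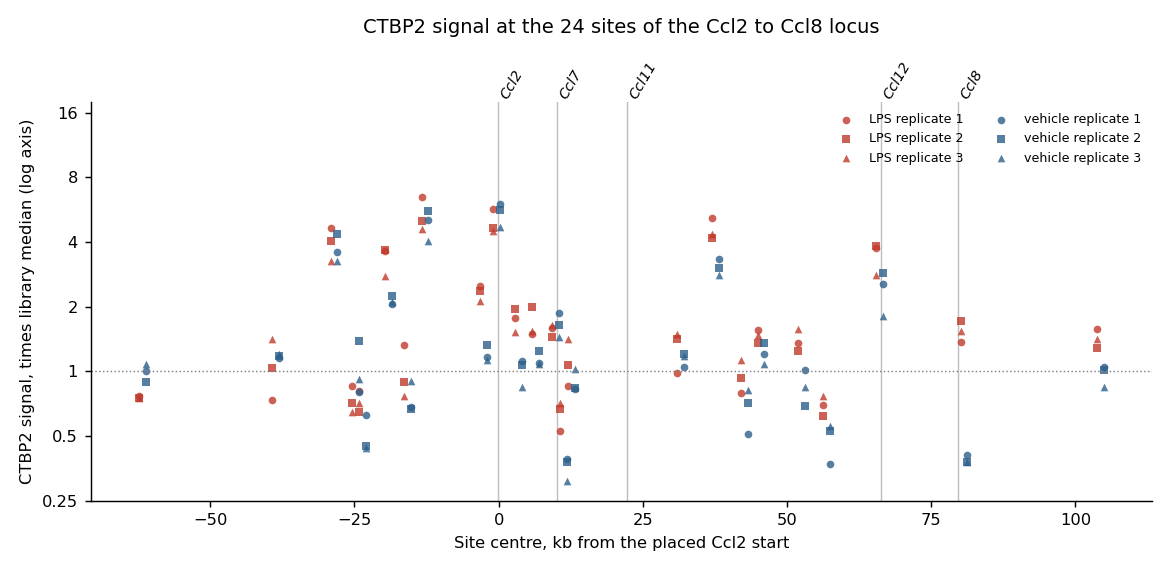
CTBP2 signal at the 24 sites of the locus, as a multiple of the library median (log axis), against the distance of the site centre from the placed Ccl2 start in kb. Red marks are LPS libraries and blue marks vehicle libraries, drawn side by side at each site, and grey lines are the placed gene starts; the strongest site in vehicle stands at the Ccl2 start and one of the weakest lies just past the Ccl8 start.

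The Ccl2 gene start carried the strongest CTBP2 signal of the locus in vehicle and did not pass the test after LPS. This site, at chromosome 11, 81925636 to 81926636, is centred 0.3 kb before the placed start and overlaps the gene. Its signal was 5.72, 4.64 and 4.50 times the library median in LPS libraries 1, 2 and 3, against 6.02, 5.64 and 4.72 in vehicle libraries 1, 2 and 3. The groups overlapped, and with a vehicle mean of 5.46 the site stood at the 99.7th percentile of all sites. Its log2 fold was -0.14, with a 95% interval of -0.41 to 0.12 (limma adjusted p = 0.447). In reads estimated from the step of each column, not scaled for depth, this was 234 to 255 per LPS library and 184 to 310 per vehicle library.

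On either side of the Ccl2 start the signal rose. The site 2.7 kb upstream (81923243 to 81924243) had 2.49, 2.38 and 2.13 times the library median in LPS libraries and 1.17, 1.33 and 1.13 in vehicle libraries. All LPS values lay above all vehicle values, and the means were 2.33 ± 0.18 and 1.21 ± 0.10 (SD, n = 3 each). The log2 fold was 0.94 (limma adjusted p = 2.3e-05, SE 0.16), which is 1.92-fold. In mouse, a well-studied distal regulatory region of Ccl2 that binds NF-kB lies upstream of its promoter; whether this site coincides with it was not tested. The site 3.4 kb past the start, beyond the end of the gene (81929304 to 81930304), had 1.77, 1.95 and 1.52 in LPS libraries and 1.12, 1.07 and 0.85 in vehicle libraries. It rose by a log2 fold of 0.77 (limma adjusted p = 0.000827, SE 0.17), with no overlap of the groups.

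Further upstream of Ccl2 lay 8 more sites, centred from -61.7 to -12.8 kb of its start, and 1 of them rose. The site at -19.2 kb (81906775 to 81907775) had 3.63, 3.69 and 2.77 times the library median in LPS libraries and 2.05, 2.24 and 2.10 in vehicle libraries, a log2 fold of 0.64 (limma adjusted p = 0.000886, SE 0.14). Its strong neighbours did not pass. The site at -12.8 kb averaged 5.39 ± 1.00 in LPS and 4.88 ± 0.78 in vehicle, and that at -28.5 kb 3.99 ± 0.71 and 3.73 ± 0.56 (SD, n = 3 each). Their log2 folds were 0.14 (95% interval -0.15 to 0.42) and 0.09 (-0.20 to 0.38), so gains as large as that at -19.2 kb lay outside both intervals. The 3 lowest log2 folds of the locus were also here, without passing the test. They were -0.44 at -24.8 kb (limma adjusted p = 0.108), -0.38 at -61.7 kb (0.137) and -0.19 at -38.7 kb (0.507). At -61.7 kb, a site overlapping the lncRNA gene Gm11419 and 5.4 kb from the Asic2 start, the LPS values of 0.77, 0.75 and 0.75 all lay below the vehicle values of 1.00, 0.89 and 1.08. The site at -24.8 kb passed without vehicle replicate 1 (log2 fold -0.60, limma adjusted p = 0.0489). The remaining sites, at -23.6 and -15.9 kb, had vehicle means of 0.51 and 0.75 and log2 folds of 0.51 and 0.37 that did not pass.

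**Figure D2:**
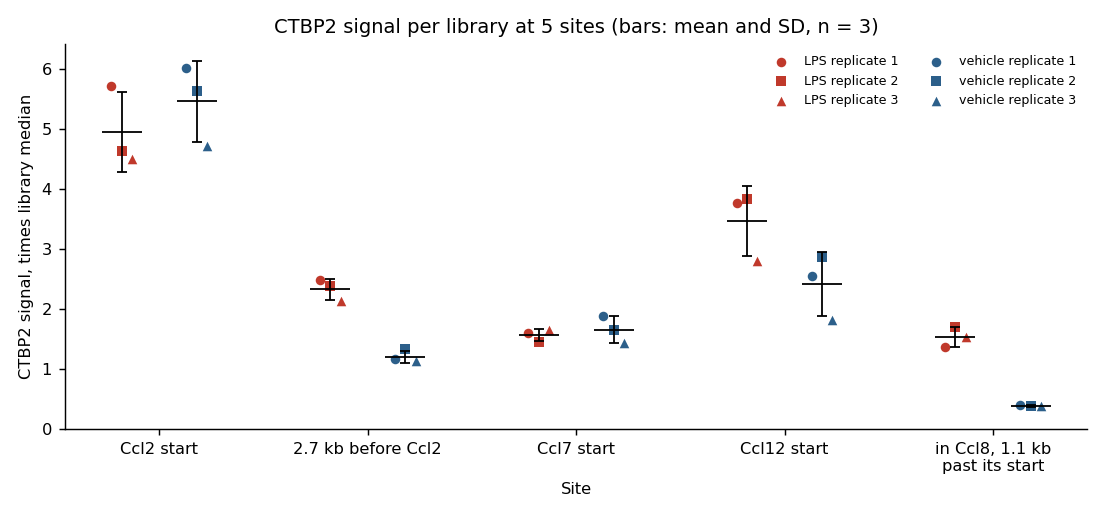
CTBP2 signal per library at 5 sites, as a multiple of the library median, with LPS libraries (red) left of vehicle libraries (blue) and black bars for the mean and SD of 3 libraries. The LPS and vehicle values overlap at the starts of Ccl2, Ccl7 and Ccl12 and are apart 2.7 kb before Ccl2 and inside Ccl8.

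Of the 4 sites nearest to Ccl7, 2 rose, both with calls that were lost without single libraries, and its start site did not pass. The start site (81935792 to 81936792, 0.3 kb before the placed start) had 1.60, 1.45 and 1.65 times the library median in LPS libraries and 1.88, 1.65 and 1.44 in vehicle libraries. The groups overlapped, with a log2 fold of -0.07 (95% interval -0.40 to 0.26, limma adjusted p = 0.787). The site 1.1 kb past the start, which overlaps the gene (81937165 to 81938165), was the weakest of the locus in vehicle. It had 0.53, 0.67 and 0.71 in LPS libraries and 0.39, 0.38 and 0.31 in vehicle libraries. Its log2 fold was 0.79 (limma adjusted p = 0.0424, SE 0.30). The call was lost without each single library, with log2 folds of 0.69 to 0.91 (limma adjusted p from 0.052 to 0.146), with quantile normalisation (0.62, limma adjusted p = 0.1) and with scaling by the library sum (0.77, limma adjusted p = 0.0511). The site 3.8 kb upstream (81932272 to 81933272), between Ccl2 and Ccl7, rose by a log2 fold of 0.53 (limma adjusted p = 0.0164, SE 0.17) and lost its call without LPS replicate 2 (0.40) or vehicle replicate 1 (0.51). The site 2.5 kb past the start had 1.12 ± 0.28 in LPS and 0.90 ± 0.11 in vehicle (SD, n = 3 each), and did not pass. The site at the start and the 2 past it lie 1.4 kb apart, centre to neighbouring centre, and the labels give sheared fragments of 500 to 1000 bp, so neighbours may share some fragments.

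Ccl11 had no site near its start. The closest centre assigned to it lay 9.3 kb past the start, at the lncRNA gene Gm38913 (81957514 to 81958514). That site had 0.98, 1.42 and 1.50 times the library median in LPS libraries and 1.05, 1.20 and 1.18 in vehicle libraries, a log2 fold of 0.16 (limma adjusted p = 0.545). The strongest site between Ccl11 and Ccl12 lay 15.3 kb past the Ccl11 start and 2.0 kb from the Gm38913 start (81963513 to 81964513). Here the LPS libraries had 5.16, 4.18 and 4.38 and the vehicle libraries 3.32, 3.04 and 2.82, which do not overlap. It rose by a log2 fold of 0.58 (limma adjusted p = 0.0012, SE 0.13). Another site, 20.4 kb past the Ccl11 start, had a log2 fold of 0.48 and missed the threshold (limma adjusted p = 0.0885), but passed without vehicle replicate 3 (0.62, limma adjusted p = 0.0351) and with the replicate number as a block (0.48, limma adjusted p = 0.0473).

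The Ccl12 start site was called, unlike those of Ccl2 and Ccl7. This site (81992014 to 81993014) covers the Ccl12 promoter printed above. It had 3.77, 3.84 and 2.81 times the library median in LPS libraries and 2.56, 2.87 and 1.82 in vehicle libraries, so the lowest LPS value lay just under the highest vehicle value. The log2 fold was 0.53 (limma adjusted p = 0.0129, SE 0.16). The call was lost without LPS replicate 1 (0.46), LPS replicate 2 (0.45) or vehicle replicate 3 (0.34), and without limma's trend and robust options (limma adjusted p = 0.0809). Of the 3 sites upstream of it, the one at -13.8 kb (81978428 to 81979428) rose, with 1.35, 1.25 and 1.58 in LPS libraries and 1.02, 0.69 and 0.85 in vehicle libraries. Its log2 fold was 0.70 (limma adjusted p = 0.00385, SE 0.19). The sites at -20.8 and -9.4 kb had log2 folds of 0.28 and 0.52 and did not pass. At both, every LPS value lay above every vehicle value, at -20.8 kb by less than the 2 decimals kept (1.36 in LPS library 2 and in vehicle library 2).

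The largest change of the locus was inside Ccl8. Its site, at 82006611 to 82007611, is centred 1.1 kb past the placed start and lies within the gene as placed, while the promoter printed above ends before it. The signal was 1.37, 1.71 and 1.54 times the library median in LPS libraries, against 0.41, 0.38 and 0.38 in vehicle libraries. The LPS values lay at least 3 times above the vehicle values, with means of 1.54 ± 0.17 and 0.39 ± 0.02 (SD, n = 3 each). Its level stood at the 73.0th percentile of all sites in LPS and at the 3.6th percentile in vehicle. The log2 fold was 1.91 (limma adjusted p = 6.08e-09, SE 0.20), or 3.76-fold, at the 99.3rd percentile of all sites. It kept its call in all 15 other settings tried, the deposited values included, with log2 folds from 1.54 to 1.99. In reads estimated as above the site had 59, 94 and 80 in LPS libraries and 17, 21 and 15 in vehicle libraries; the exact Poisson 95% intervals, which cover counting error only, reached down to 44.9 in LPS and up to 32.1 in vehicle. The last site of the locus, 24.8 kb past the Ccl8 start (82030317 to 82031317), had 1.58, 1.29 and 1.42 in LPS libraries and 1.05, 1.02 and 0.85 in vehicle libraries. Its log2 fold of 0.55 (limma adjusted p = 0.0157, SE 0.17) lost the call without LPS replicate 1 (0.48) or vehicle replicate 3 (0.46).

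**Figure D3:**
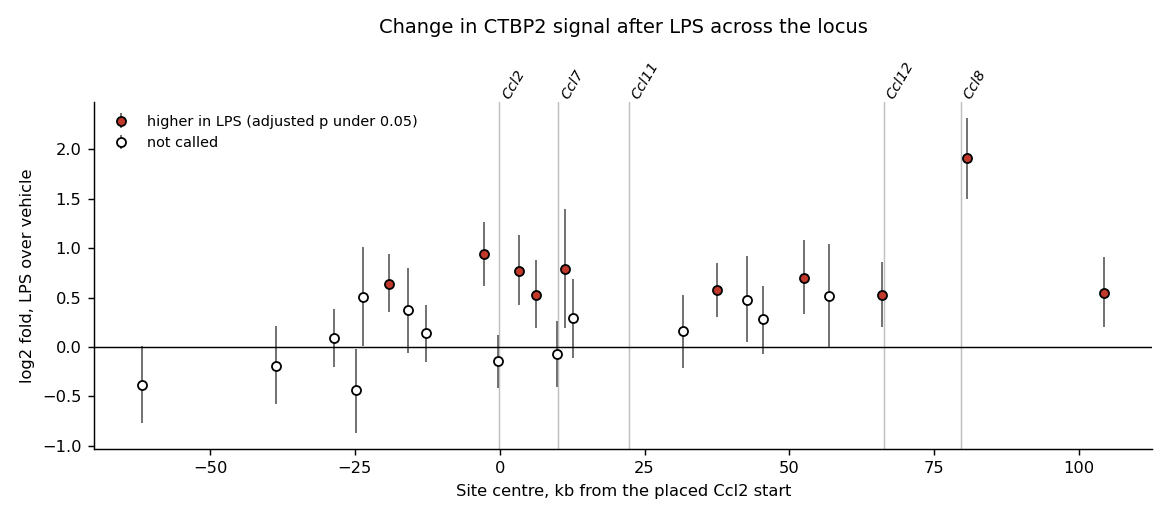
The log2 fold of LPS over vehicle at each site, with its 95% interval, against the distance from the placed Ccl2 start in kb; filled points passed limma at an adjusted p under 0.05. The sites at the starts of Ccl2 and Ccl7 lie near 0 between sites that rose, and the point just past the Ccl8 start, at 1.91, is the highest.

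The sites were grouped by distance from a chemokine gene start, after the values were seen. Higher were 1 of 3 sites within 0.5 kb of a start, 5 of 6 at 0.5 to 5 kb and 4 of 15 farther away. No shares in such bands were taken over all sites, so the counts do not show a gain particular to any distance. At 0.5 to 5 kb, the called sites 3.8 kb before and 1.1 kb past the Ccl7 start lost their calls without single libraries. So did the Ccl12 start site and the site 24.8 kb past the Ccl8 start. The median vehicle levels of the bands were 2.42, 0.96 and 1.04 in the same order. The start sites had vehicle means of 1.66 to 5.46 and log2 folds of -0.14 to 0.53. The sites at 0.5 to 5 kb had vehicle means of 0.36 to 1.21 and log2 folds of 0.29 to 1.91. Strong sites were not all level, since of the 7 sites with a vehicle mean of at least 1.5 there were 3 that rose, with a highest log2 fold of 0.64.

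Whether sites of the locus changed unequally was compared within each library. This removes the scaling of the library, except for its effect through the 1 added to each scaled value before the log. Pairs were picked after the values were seen. The log2 ratio of the Ccl8 site to the Ccl2 start site averaged -1.67 ± 0.33 in LPS and -3.72 ± 0.15 in vehicle (SD, n = 3 each), a difference of 2.05. Against the Ccl7 start site the difference was 1.98, and against the Ccl12 start site 1.38. The Ccl12 start site gained 0.67 on the Ccl2 start site and 0.60 on the Ccl7 start site, and the site 2.7 kb upstream of Ccl2 gained 1.08 on the Ccl2 start. In 5 of the 6 pairs the groups did not overlap, at an exact two-sided permutation p = 0.1 (0.12 when adjusted over the 6 pairs), which is the smallest p that 3 against 3 libraries allow. For the Ccl12 and Ccl7 start sites the exact permutation p was 0.2.

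The signal summed over the locus was 51.1, 47.6 and 45.0 library medians in LPS libraries and 39.0, 40.7 and 34.8 in vehicle libraries. The groups did not overlap, and the LPS mean was 1.26-fold the vehicle mean on the log scale (exact two-sided permutation p = 0.1). On the deposited values without rescaling the groups overlapped, with a log2 fold of the sum of 0.39 (exact two-sided permutation p = 0.3). The 11 sites nearest to Ccl2 held 57.4%, 54.2% and 51.3% of the summed signal in LPS libraries, against 59.7%, 60.9% and 59.2% in vehicle libraries. The LPS minus vehicle difference of their mean shares was -5.65 percentage points. Sites were assigned among the 5 chemokine genes only. Of those given to Ccl2, the site at -61.7 kb is nearer to the Asic2 start. Those at -38.7, -28.5 and -24.8 kb are nearer to the start of Gm31522. All Ccl11 sites and the site at -20.8 kb of Ccl12 are nearer to the Gm38913 start. The 2 sites of Ccl8 held 5.8%, 6.3% and 6.6% in LPS libraries and 3.8%, 3.4% and 3.5% in vehicle libraries, 2.65 points higher in LPS. Those of Ccl12 held 14.4%, 14.9% and 14.7% in LPS libraries and 13.2%, 13.4% and 12.4% in vehicle libraries, 1.68 points higher in LPS. For these 3 genes the groups did not overlap, at an exact permutation p = 0.1 (0.167 adjusted over the 5 genes), again the smallest possible. The groups overlapped for Ccl12 when the share was taken from sites within 5 kb of a start or from the highest site of each gene (exact permutation p = 0.4 and 0.2). The shares of Ccl7 and Ccl11 overlapped between groups, with exact permutation p = 0.9 and 0.3. From the highest site of each gene alone they did not overlap, at differences of -2.33 points for Ccl7 and 5.94 points for Ccl11 (exact permutation p = 0.1 each). Shares within a library sum to 100%, so one share cannot rise without another falling.

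**Figure D4:**
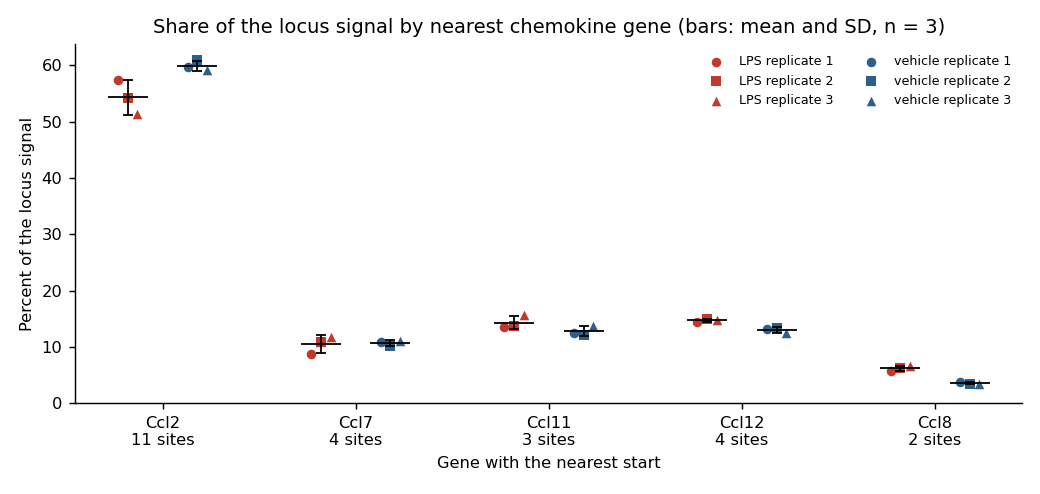
Percent of the summed CTBP2 signal of the locus held by the sites nearest to each chemokine gene start, per library, with LPS (red) left of vehicle (blue) and bars for the mean and SD of 3 libraries. The Ccl2 sites hold over 50% in every library, and the LPS libraries lie below the vehicle libraries for Ccl2 and above them for Ccl12 and Ccl8.

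Next to the locus, the 180 kb below it held 2 sites, of which 1 was lower and none higher in LPS, while the 180 kb above it held 6 sites, of which 3 were higher. The gains therefore did not end at the edge drawn by the rule. One of the 3 lay at -15.3 kb of Ccl1, the next chemokine gene (82085506 to 82086506), with 1.28 ± 0.10 in LPS and 0.42 ± 0.07 in vehicle (SD, n = 3 each). It rose by a log2 fold of 1.58 (limma adjusted p = 5.77e-07, SE 0.21). By the rule used below for listed genes, Ccl1 had 6 sites, 3 of them higher and 0 lower.

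The other chemokine clusters had a similar share of higher sites but larger gains. Higher sites numbered 14 of 32 in the Ccl5 to Ccl4 cluster, 6 of 18 around Cxcl1, Cxcl2 and Cxcl3, and 5 of 12 around Cxcl9 and Cxcl10, each taken from 40 kb before the first to 40 kb past the last placed start. Lower sites numbered 1, 1 and 0. Their highest log2 folds were 5.11, 4.95 and 4.37, against 1.91 at the Ccl2 to Ccl8 locus, and the number of sites above a log2 fold of 2 was 4, 3 and 1, against 0. The median log2 folds were 0.42, 0.28 and 0.40, so the medians were alike and the extremes were not. In each library the summed signal of the locus was set against that of each cluster. The log2 ratio to the Ccl5 to Ccl4 cluster was -0.65, -1.03 and -1.47 in LPS libraries and -0.09, -0.01 and -0.40 in vehicle libraries, a difference of -0.88. Against the Cxcl1 to Cxcl3 and the Cxcl9 to Cxcl10 clusters the differences were -0.83 and -0.67. In all 3 the groups did not overlap (exact permutation p = 0.1, the smallest possible, and 0.1 adjusted over the 5 regions compared, the flanks included).

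**Figure D5:**
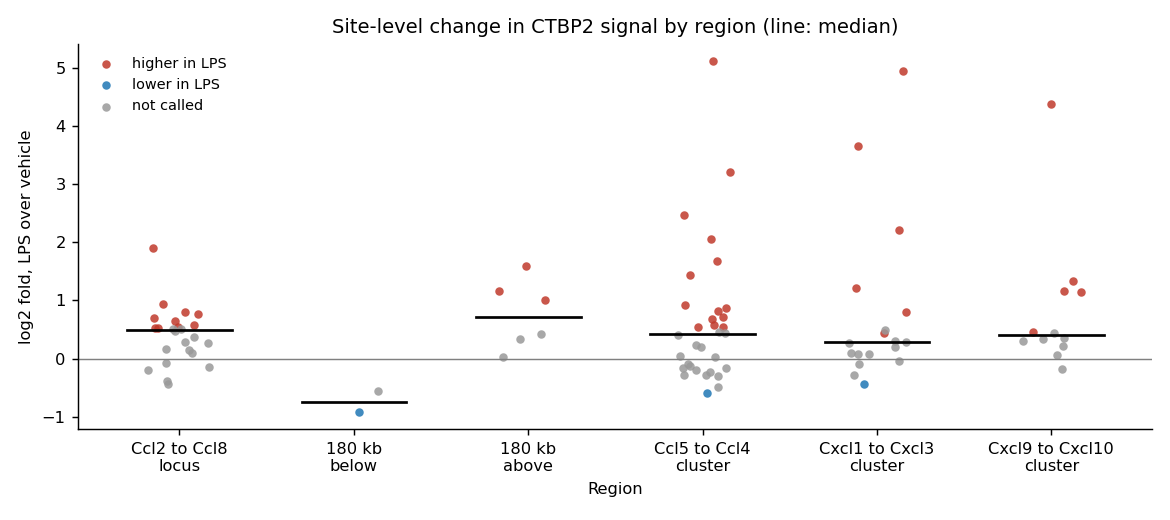
Site-level log2 folds of LPS over vehicle at the Ccl2 to Ccl8 locus, in the 180 kb on either side and in 3 other chemokine clusters; each point is a site, red points are higher and blue points lower in LPS, and the black line is the median. The locus has a median near those of the other clusters and none of their points above 2.

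Chemokine ligands and receptors outside the locus were read from a list, taking sites within 50 kb whose nearest start was that of the gene. The list includes Ccl1 and the genes of the clusters above, so part of its ligand sites were already counted there. Of 19 other ligand genes with a site, 14 had a higher and 3 a lower site, and 26 of their 70 sites were higher and 3 lower. Of 11 receptor genes with a site, 5 had a higher and 7 a lower site, and 7 of 46 sites were higher and 10 lower. Over all sites 16.1% were higher and 13.5% lower, so the share of higher receptor sites was near that of the table; the counts of genes have no such figure beside them. Cxcl2, which encodes a neutrophil attractant, and Cxcl10, which encodes a T cell attractant, had the highest log2 folds when each gene was given by its site of smallest p, 4.95 and 4.37. Both are sites already given above as the highest of their clusters. Ccl22, a ligand of Ccr4, and Cxcl16, a scavenger receptor and ligand, had sites that rose by 1.00 and 0.92.

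For the receptors Ccr2 and Ccr3, which bind products of the locus, the called sites were all lower. Ccr2, the receptor of Ccl2, Ccl7 and Ccl12, had 1 of 6 sites lower and none higher. Its called site, at -18.4 kb (chromosome 9, 123912304 to 123913304), had 0.81 ± 0.10 in LPS and 1.37 ± 0.30 in vehicle (SD, n = 3 each), a log2 fold of -0.72 (limma adjusted p = 0.00432, SE 0.19). Ccr3, the eotaxin receptor, had 3 of 9 sites lower, and the one 20.8 kb past its start fell by 1.19 on the log2 scale (limma adjusted p = 2.3e-05, SE 0.19). Ccrl2, which encodes an atypical chemerin-binding receptor, rose instead, by 1.75 at a site at -0.6 kb of its start (limma adjusted p = 1.32e-11, SE 0.14).

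Outside the locus, the sites whose pattern over the 6 libraries was most like the Ccl2 start site were named Jmjd6, Cpq, Spred2, Irs2 and Ncoa1 in the table, with Pearson r from 0.988 to 0.996 over 6 libraries. Their log2 folds were -0.35 to -0.14 and their vehicle means 0.76 to 1.50, so none was bound as strongly. With 6 libraries, 140 sites had an r above 0.95. In the authors' deposited table the same site of Ccl8 was the only one of the 24 with an FDR under 0.05 (log2 fold 1.63, FDR 0.000135), where 4.01% of all sites were higher and 0.37% lower by that rule. The authors' deposited table names Ccl2 for all 24 sites.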

How the data were processed

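CTBP2 ChIP-seq values were read from 1 table. Per the submitters' processing notes, DiffBind 3.16 in R 4.4.1 was used, with MACS3 3.0.0a5 and BWA 0.7.17; whether peaks were called on single libraries or a pool is not known here. The authors deposited a normalised signal per site and library; its values are whole multiples of 1 step per library within 0.1 read, and what set the step is not given. The deposited log2 concentrations were not used. The deposited log2 fold, p-value and FDR are quoted only as the authors' values.

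Each signal column was divided by its median, and for the test multiplied by the mean of the 6 medians (48.8). Sites were tested with limma 3.58.1 (R 4.3.3; trend, robust) on log2(value + 1), LPS minus vehicle, without covariates or a filter; folds on this scale understate changes of low sites. No count model was run, since the values are normalised. Library sums, ratios and shares were compared by exact permutation. The fit was tested on simulated data.

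Starts of Ccl2, Ccl7 and Ccl11 came from the gene table, the others from the promoter table. The offset was scanned at every 50 bp out to 1 Mb. Each site of the locus went to the nearest of the 5 starts. By rule, described sites were, per gene, that nearest to the start and that with the smallest adjusted p, plus the 3 highest and 3 lowest log2 folds; the rest were added after their values were seen. The members, lists and rules were chosen with earlier results of these data known. Listed genes outside the locus without a strand or a clear offset were not placed. For genes of the locus, the plus strand was the default where no strand was given.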

Additional observations from a re-analysis of the deposited data

How the results depend on the processing

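The Ccl8 site passed in every setting tried. Of the 10 called sites, 6 kept their call without each single library, and 5 of the 10 lost it only on the deposited values. There the higher and lower sites of the whole table numbered 1178 and 30, against 10033 and 8408, the locus had 1 higher site, and its median log2 fold was 0.56. That median was 0.41 with quantile normalisation and 0.39 with a pseudocount of 10. At an adjusted p under 0.01, 4699 sites of the table were lower and 6 of the locus higher. Without single libraries the locus had 7 to 9 higher sites, 0 to 1 lower sites (that at -24.8 kb from Ccl2, without vehicle replicate 1) and a median of 0.32 to 0.48, while the whole table had 7691 to 10083 higher and 6031 to 7914 lower sites. The change in the share of Ccl7 was -0.14 points and ran from -0.79 to 0.73 without single libraries, positive without LPS replicate 1 (0.73) or vehicle replicate 3 (0.06). The log2 fold at -38.7 kb of Ccl2 ran from -0.41 to 0.04 without single libraries (0.04 without LPS replicate 1), and that at the Ccl7 start from -0.17 to 0.03 (0.03 without vehicle replicate 1). From sites within 5 kb of a start, the change in share was -5.41 points for Ccl2, -1.63 for Ccl7, 1.66 for Ccl12 (exact permutation p = 0.4) and 5.38 for Ccl8. From the highest site of each gene it was -9.38 for Ccl2, -2.33 for Ccl7, 5.94 for Ccl11, 3.98 for Ccl12 (exact permutation p = 0.2) and 1.79 for Ccl8. The cause of these changes was not tested.

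With the replicate number as a block the locus had 11 higher sites and 0 lower, and over all sites 11691 were higher and 10397 lower. Deviations of same-numbered libraries correlated at 0.111, 0.038 and 0.214. LPS replicate 1 correlated best with vehicle replicate 2 (0.148), while LPS replicates 2 and 3 correlated best with the vehicle library of their own number. The other differently numbered libraries correlated at -0.205 to -0.011. These values do not settle whether the numbers are pairs, which the labels do not state, and the main test took the libraries as unpaired. Ccl11 has no site within 5 kb and no share in that setting. The planned count tests (edgeR, DESeq2) were not run, because the table holds normalised values and whole reads could not be recovered from every column at a strict tolerance. Depth limits the weakest sites, with as few as 12 reads in a library.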
